A study of Homo sapiens with 12 samples.

Results

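Untreated T24 cells, an established human bladder cancer cell line, were sequenced in 4 of the 12 RNA-seq libraries of a study on U11, a small nuclear RNA of the minor spliceosome. The 4 libraries are all the untreated ones and carry no edit or added construct by their labels. T1 and T2 bear the library number prefix R18051, which they share with the 2 libraries labelled U11 knockout. T24P3 bears the prefix R17018 and T24-4 the prefix R18019, which they share with the 6 libraries labelled U11 overexpression. T1 and T2 were compared with T24P3 and T24-4. The labels give polyA RNA as the molecule for all 4, whereas the study's methods describe removal of ribosomal RNA, and neither source says which preparation was used for which prefix. Whatever differed in preparation, date or culture between the prefixes cannot be told apart from the groups compared, and no library of one prefix set can be compared within the other. The labels do not say whether T1 and T2 are separate cultures, so the P-values measure the spread between these libraries, which may be technical. The data are bulk RNA, in which fewer cells with an RNA and less of that RNA per cell cannot be told apart.

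The values are TPM, a transcript abundance divided by transcript length and set to the same total in every library. Here they were divided by a median ratio factor taken over the 21837 genes above 0 in all 4 libraries, and are called scaled TPM. The factors were 0.70457 for T1 and 0.76982 for T2, against 1.3896 for T24P3 and 1.3701 for T24-4. The tables hold no read counts. The most common ratio of coverage to FPKM placed 13.65, 14.34, 9.072 and 13.49 aligned gigabases behind T1, T2, T24P3 and T24-4. Only 15.8%, 16.9%, 14% and 14.2% of the entries examined had that ratio, so these depths are rough. Of the 60504 listed entries, 33813 and 34729 were above 0 in T1 and T2, and 24256 and 26124 in T24P3 and T24-4. The 10 highest entries held 49.6% and 48.5% of the TPM in T1 and T2 and 7.06% and 7.12% in T24P3 and T24-4.

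Most messenger RNAs end in a poly(A) tail, which is added after a signal, usually AATAAA in the gene, is recognised near the 3′ end. Several abundant RNAs lack such a tail. The mRNAs of replication-dependent histones end just after a short stem-loop, RNA polymerase III ends its transcripts at a run of T, and most small nuclear RNAs (snRNAs) and small nucleolar RNAs (snoRNAs) are trimmed from precursors or from the introns of host genes. Mitochondrial transcripts, cut from long precursors of the mitochondrial genome, carry short tails on their mRNAs and rRNAs. Entries were therefore grouped into 25 classes by the first letters of their symbols.

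The 3′ ends of genes that the comparison turns on show these differences in sequence, read from the hg38 genome at the coordinates of the deposited entries. One replication-dependent gene is given for each of histones H3, H1, H2B, H4 and H2A, with the stem bases on either side and the loop between them in capitals.
HIST1H3B (chr6:26031592-26031617, minus strand): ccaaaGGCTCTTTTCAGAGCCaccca
HIST1H1B (chr6:27866792-27866817, minus strand): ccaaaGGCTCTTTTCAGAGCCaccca
HIST1H2BK (chr6:27146361-27146386, minus strand): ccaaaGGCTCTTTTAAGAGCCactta
HIST1H4K (chr6:27831173-27831198, minus strand): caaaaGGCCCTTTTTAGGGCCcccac
HIST2H2AA3 (chr1:149842218-149842243, minus strand): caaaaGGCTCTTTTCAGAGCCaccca
For 3 RNA polymerase III transcripts, the bases around the 3′ end of the entry are shown, with the run of T at or just past that end in capitals.
RN7SK (chr6:52995928-52995953, plus strand): catgtggcagtctgcctttcTTTTga
RMRP (chr9:35657744-35657771, minus strand): gctcattctcagcgcggctgTTTTTTgt
RN7SL1 (chr14:49586858-49586883, plus strand): acatagcgagaccccgtctcTTTTga
For contrast, the poly(A) signal is in capitals in 1 histone gene that was not called and in 2 glycolysis genes that were high in all 4 libraries.
HIST1H2AC (chr6:26139086-26139115, plus strand): gtAATAAAaggtaatgcaaagggagaggaa
GAPDH (chr12:6538346-6538375, plus strand): tcAATAAAgtaccctgtgctcaaccagtta
ENO1 (chr1:8861002-8861031, minus strand): aaAATAAAaagcctcagtgacccatgagaa
AATAAA on the sense strand lay within the last 50 bases of 30% of all entries and 58.6% of protein-coding entries, against 20.2% of the histone entries and 1.99% of the major snRNA entries. A run of TTTT within 10 bases on either side of the 3′ end was found in 14.2% of all entries, 51.3% of the major and 57.5% of the minor snRNA entries. The share was 6.82% for 7SL, 14.9% for Y RNA, 22% for 7SK, 33.3% for RNase and telomerase RNA and 40% for vault RNA entries. A match describes these letters alone.

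A pair of RNA sets separated the prefixes. The small structured RNAs and the replication-dependent histone mRNAs together (13 classes, histone variants not counted) held 56.4% and 55.2% of the TPM in T1 and T2, against 0.22% and 0.203% in T24P3 and T24-4. The 13 mitochondrial mRNAs held 0.253% and 0.319% in T1 and T2, against 4.86% and 5.12%. The summed scaled TPM of each class in every library is plotted, and for most long RNA classes the 4 points lie close together. With 2 libraries against 2, the exact permutation test of a class sum (two-sided) cannot go below 0.33, the value reached by every class with no overlap between T1, T2 and T24P3, T24-4.

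**Figure D1:**
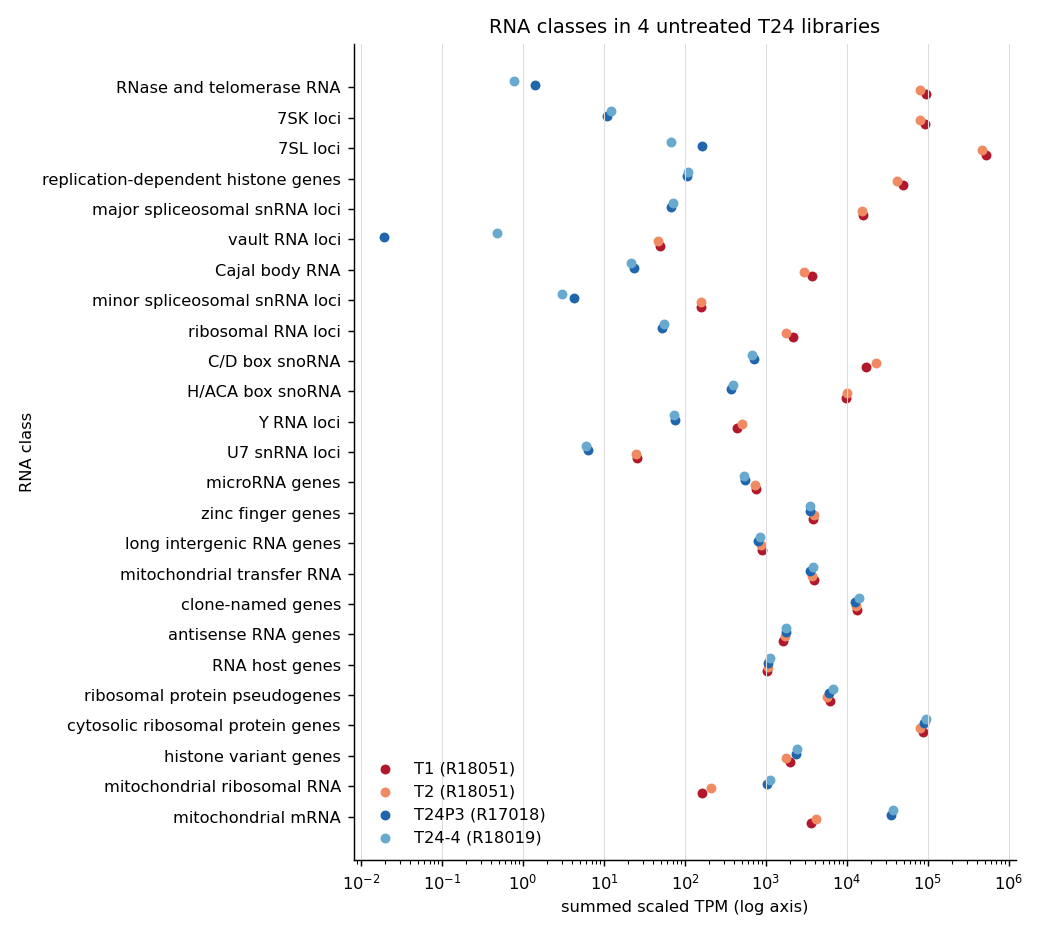
Summed scaled TPM (log axis) of each RNA class in T1 and T2 (reds) and T24P3 and T24-4 (blues), 1 point per library, with small vertical offsets so that points can be told apart. The sum for the replication-dependent histone genes was 421-fold higher in T1 and T2, and that of the mitochondrial mRNAs 9.36-fold lower.

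Over all 14963 genes with at least 1 scaled TPM in 2 or more libraries, 1427 were called higher in T1 and T2 (9.54%) and 1652 were called lower (11%) by limma, for a Benjamini-Hochberg adjusted P under 0.05 together with a change of 1.5-fold or more on the log2(scaled TPM + 1) scale. On that scale the change of a gene at low level is understated. With the same genes tested and 1 library left out, 433 were called higher and 306 lower without T1, 385 and 259 without T2, 1183 and 1189 without T24P3, and 1348 and 1397 without T24-4. For 69.4% of the genes, both R18051 values lay on one side of both other values. The split between higher and lower calls moved with the scaling. It was 519 higher and 10485 lower with TPM as deposited, 2261 and 917 when the scaling used genes outside the classes, and 1178 and 1799 with quantile normalization. Over all genes the median of the log2 fold changes was -0.06 as reported here, -0.86 with TPM as deposited, 0.14 with scaling outside the classes and -0.08 with quantile normalization. T1 and T2 differed from each other by at least 1.5-fold for 6.22% of the genes, and T24P3 and T24-4 for 5.53%.

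**Figure D2:**
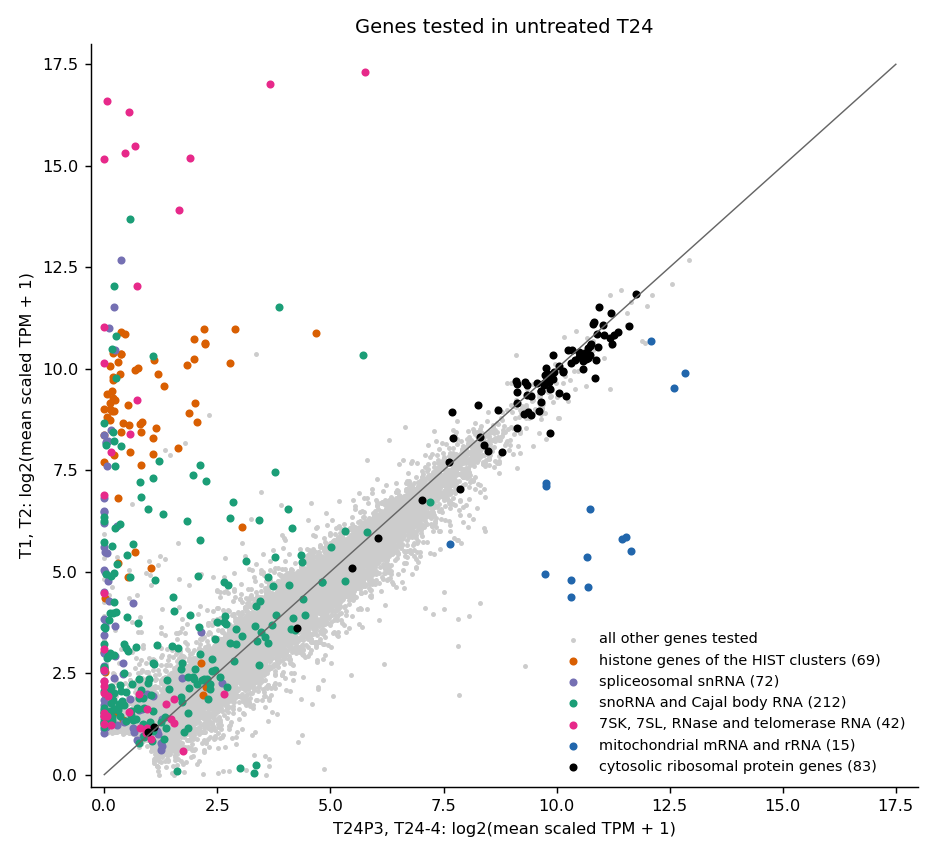
Log2(mean scaled TPM + 1) of every tested gene in T24P3 and T24-4 (x axis) and in T1 and T2 (y axis), with RNA classes in colour and the line of equal level drawn. The small RNAs and histone genes rise along the left side, the 15 mitochondrial mRNAs and rRNAs lie below the line, and the 83 ribosomal protein genes lie along it.

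The replication-dependent histone genes, which package new DNA and lie mostly in the HIST clusters of chromosomes 6 and 1, summed to 48652 and 41034 scaled TPM in T1 and T2 and to 105 and 108 in T24P3 and T24-4. T1 and T2 stood far above the other libraries, with no overlap. Of 89 listed entries 69 were tested, 66 were called higher and none lower. Of the tested entries, 44 passed the filter only through T1 and T2 and so had to differ. Among the 20 at 1 scaled TPM or more in all 4 libraries, 17 were called higher, beside the 9.54% of all genes. The 3 tested entries that were not called were HIST2H2BD, HIST2H2BC and HIST1H2AC, and of the 20 entries not tested 3 were listed at 0 in all 4 libraries.

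HIST1H1C, a linker histone gene, stood at 2183 and 1849 scaled TPM in T1 and T2 and at 6.87 and 5.96 in T24P3 and T24-4, a log2 fold change of 8.09 ± 0.13 (SE, limma adjusted P = 7.33e-06). HIST1H3B, which encodes histone H3, stood at 2090 and 1764 against 0.288 and 0.294. Its log2 fold change of 10.54 was the largest of the class. HIST1H4K, which encodes histone H4, stood at 2146 and 1856 against 3.10 and 4.16. HIST1H2BK, which encodes a histone H2B, kept the highest level of these in T24P3 and T24-4, at 26.2 and 23.1, against 2004 and 1780. Copies of 1 histone protein are nearly identical in sequence, as in HIST2H2AA3 and HIST2H2AA4 (1735 and 1434, and 1691 and 1407, in T1 and T2), so the division of reads between them is uncertain.

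A stem-loop of the form shown above was searched for within 100 bases on either side of the annotated 3′ end. It was found for 47 of the 89 histone entries and for 7 of the 60415 other entries. A stem-loop outside this window would be missed. Of the 38 tested entries with it, 38 were called higher, with log2 fold changes from 0.94 to 10.54 and a median of 8.76. Of the 31 tested entries with none found in the window, 28 were called higher, with a median of 7.13. Among them were 13 of the 14 that had AATAAA and no stem-loop found in the window. Many of these entries passed the filter only through T1 and T2, so these counts are a description. Leaving out either library of T1 and T2, with the genes tested kept, left 63 of the 66 entries called in every fit.

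The histone variant genes, whose mRNAs mostly carry poly(A) tails and are made through the cell cycle, summed to 2002 and 1786 scaled TPM in T1 and T2 and to 2356 and 2398 in T24P3 and T24-4. The class was taken by symbol and also holds pseudogenes such as H3F3AP6 and the antisense entry H1FX-AS1. Of 16 tested, 4 were called higher (25%) and 5 lower (31.2%), beside 9.54% and 11% of all genes. H2AFZ, which encodes H2A.Z, stood at 455.4 and 412.6 against 787.1 and 815.5, and H1F0, a linker histone of resting cells, at 113.8 and 106.4 against 264.2 and 266. H2AFJ was higher, at 122.2 and 82.1 against 20.3 and 24.9. H2BFS, a histone H2B entry, was at 21.02 and 19.6 against 0.0710 and 0.0705. H3F3B, one of the H3.3 genes, was called higher at 370.8 and 343.2 against 246.8 and 171.5, but its log2 fold change was -0.11 with TPM as deposited. The calls of H1F0 and H2BFS held without any 1 of the libraries. That of H2AFZ was lost without T1 or without T2 (log2 fold change -0.96 to -0.81 over all leave-outs).

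The largest shares belonged to RNA polymerase III transcripts. 7SL RNA, the scaffold of the signal recognition particle that brings secreted proteins to the endoplasmic reticulum, summed over its 909 entries to 518209 and 463317 scaled TPM in T1 and T2 and to 161 and 67.04 in T24P3 and T24-4. It made up 35.7% to 36.5% of the TPM in T1 and T2 and 0.00919% to 0.0224% in the others. RN7SL2 stood at 100214 and 98663 against 0.0151 and 0.0634, and RN7SL1 at 141216 and 125741 against 18.3 and 5.18. RN7SL2 and an entry named Metazoa_SRP cover the same locus on chromosome 14, so their split is uncertain. Of 27 entries tested, 18 were called higher and 1, the pseudogene RN7SL268P, lower. Of the tested, 14 passed only through T1 and T2 and 2 only through the others. Of the 6 at 1 scaled TPM or more in all 4 libraries, 3 were called higher.

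7SK RNA, which holds the elongation factor P-TEFb in an inactive complex, summed to 91088 and 80023 scaled TPM in T1 and T2 and to 10.8 and 12.3 in T24P3 and T24-4. RN7SK carried most of it, at 87010 and 76183 against 0.183 and 0.729. Of its 300 entries 10 were tested and 9 called higher, all of which passed only through T1 and T2, and copies such as RN7SKP203 (2145 and 2020 against 0 and 0) share sequence with the parent gene.

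RMRP, the RNA of RNase MRP that cuts precursor rRNA, stood at 49396 and 41832 scaled TPM in T1 and T2 and at 0.901 and 0.309 in T24P3 and T24-4. RPPH1, the RNA of RNase P that trims tRNA precursors, stood at 44208 and 36923 against 0.516 and 0.243. The telomerase RNA entry Telomerase-vert stood at 268.7 and 225.5 against 0 and 0.225. These short RNAs were near 0 in both T24P3 and T24-4 and high in both T1 and T2. All 5 tested entries of this class were called higher and passed the filter only through T1 and T2.

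The other polymerase III RNAs were less abundant. Y RNAs, which bind the Ro60 protein, summed to 443 and 508 scaled TPM in T1 and T2 and to 76.0 and 72.5 in T24P3 and T24-4, 6.41-fold apart. RNY3 stood at 84.8 and 89.98 and RNY1 at 55.4 and 64.9, both listed at 0 in T24P3 and T24-4. Of 36 tested Y RNA entries among 839 listed, 20 were called higher and 4 lower, 19 having passed only through T1 and T2. Most entries of this class are scattered copies, and among the 3 at 1 scaled TPM or more in all 4 libraries 1 was higher and 1 lower. Quantile normalization left 13 of the entries called higher, and leaving out T1 or T2 left 13 or 9. Vault RNAs summed to 48.7 and 46.4 against 0.0190 and 0.481, mostly from VTRNA1-3 (40.7 and 39.8 against 0 and 0.436).

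The snRNAs of the major spliceosome, which removes most introns, summed to 15835 and 15381 scaled TPM in T1 and T2 and to 66.6 and 70.5 in T24P3 and T24-4, 228-fold apart. Of the 1660 entries, most of them pseudogenes, 1016 were listed at 0 in all 4 libraries. Of the 65 tested, 47 were called higher and none lower, and 46 passed only through T1 and T2. RNU2-2P, a U2 snRNA entry, stood at 6488 and 6671 scaled TPM against 0.573 and 0.0306. RNU1-3, a U1 snRNA gene, stood at 3137 and 2770 against 0.0966 and 0.228. RNU4-1 and RNU4-2, the U4 snRNA genes, stood at 327.4 and 331.4 and at 378.1 and 344.2, and neither passed 0.218 in T24P3 or T24-4. U1 copies share their sequence, so the division between RNU1-3, RNU1-1, RNU1-4 and RNVU1-7 is uncertain.

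The snRNAs of the minor spliceosome, which removes the rare U12-type introns, summed to 158.5 and 158.5 scaled TPM in T1 and T2 and to 4.20 and 3.00 in T24P3 and T24-4, 44-fold apart. RNU11, the RNA targeted in the study, stood at 30.3 and 30.95 against 0.0241 and 0.00405 (log2 fold change 4.96 ± 0.11, SE, limma adjusted P = 2.08e-05). A second RNU11 entry was listed at 0 in T1, T2 and T24P3 and at 0.451 in T24-4. RNU12 stood at 91.9 and 87.1 and was listed at 0 in T24P3 and T24-4, RNU4ATAC stood at 9.22 and 14.1 against 0.0175 and 0, and RNU6ATAC at 11.2 and 11.97 against 0.349 and 0. Of 7 entries tested, 6 were called higher, all of which passed only through T1 and T2. The entries of U7 snRNA, which pairs with histone pre-mRNA at its 3′ end, summed to 25.7 and 24.7 against 6.32 and 5.97, and none of the 165 passed the filter.

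SnoRNAs guide chemical changes of ribosomal RNA, and C/D box members direct 2′-O-methylation. Their sum was 17264 and 22761 scaled TPM in T1 and T2 and 705 and 676 in T24P3 and T24-4, 29-fold apart. The U3 snoRNA genes, which act in rRNA processing and have their own promoters, carried most of the difference. SNORD3A stood at 10970 and 15443 against 0.478 and 0.502, and SNORD3B-1 at 1862 and 1717 against 0.315 and 0.0914. Of 103 tested C/D box entries 48 were called higher and 5 lower. Of the tested, 37 passed only through T1 and T2 and 4 only through the others. Among the 43 at 1 scaled TPM or more in all 4 libraries 12 were higher and 1, SNORD30, lower. Entries within introns share their position with a host gene, and SNORD58B stood at 108 and 98.7 against 148.7 and 143.0. Without T1 25 of the C/D box entries and without T2 22 were called higher. SNORD32A (mean 0.180 against 9.19) and SNORD18C (mean 0.0233 against 8.92) were among those called lower.

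H/ACA box snoRNAs, which guide pseudouridylation, summed to 9687 and 9866 scaled TPM in T1 and T2 and to 370 and 392 in T24P3 and T24-4, 25.7-fold apart. SNORA73A stood at 4165 and 4224 against 0.182 and 0.1396, and SNORA73B at 2897 and 2942 against 15.8 and 11.4. Of 89 tested, 70 were called higher and none lower, and 39 of the tested passed only through T1 and T2. Of the 34 at 1 scaled TPM or more in all 4 libraries 23 were called higher, beside 9.54% of all genes. Without T1 38 of the 89 and without T2 36 were called higher. Small Cajal body RNAs, which guide changes of snRNAs, summed to 3701 and 2963 against 23.6 and 21.6. SCARNA10 stood at 1375 and 1172 against 1.45 and 0.769, and SCARNA2 at 428.8 and 375.1 with both other libraries listed at 0. Of 20 tested, 18 were called higher, but 14 of the tested passed only through T1 and T2. Among the 4 at 1 scaled TPM or more in all 4 libraries, 3 were called higher. SCARNA12 was not called, since T1 and T2 themselves differed (385.5 and 11.3 against 3.43 and 3.30). It was called higher without T1, at a log2 fold change of 1.49, and without T2, at 6.47.

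The genes that host snoRNAs in their introns had similar sums in all 4 libraries. The 25 entries of this class, named SNHG, GAS5 and DANCR, summed to 1024 and 1044 scaled TPM in T1 and T2 and to 1051 and 1132 in T24P3 and T24-4, and scaling outside the classes turned the log2 ratio to 0.15. Of 23 tested, 5 were called higher (21.7%) and 6 lower (26.1%), beside 9.54% and 11% of all genes. GAS5, host of several C/D box snoRNAs, stood at 147.6 and 132.9 against 200.8 and 212.5. SNHG22 was higher, at 17.8 and 20.7 against 0.431 and 0.488 (log2 fold change 3.79 ± 0.13, SE, limma adjusted P = 1.05e-04), and SNHG16 was higher, at 112.1 and 101.3 against 31.2 and 39.7. SNHG1 was lower, at 79.9 and 94.3 against 138.6 and 146.1. Only the call of SNHG22 among these 11 held without any 1 of the libraries. Without T1 or without T2, SNHG16 was at log2 fold changes of 1.5 and 1.64 and was no longer called.

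Entries from the ribosomal DNA also rose. Entries of the ribosomal RNA class summed to 2132 and 1765 scaled TPM in T1 and T2 and to 52.5 and 55.2 in T24P3 and T24-4, mostly from 5.8S rRNA. The highest of the entries named RNA5-8S5 stood at 1444 and 1194 against 7.63 and 10.7. Of 17 tested, 9 were called higher and 4 lower, and all 4 lower were 5S rRNA pseudogenes such as RNA5SP283 (2.16 and 2.13 against 4.97 and 6.45). Of the tested, 6 passed only through T1 and T2 and 2 only through the others. Among the 7 at 1 scaled TPM or more in all 4 libraries, 3 were higher and 2 lower. Several clone-named entries and microRNA entries of chromosome 21 lie within the RefSeq genes of the 45S precursor (RNA45SN1, RNA45SN2 and RNA45SN3). In the 5′ external transcribed spacer, a part of the precursor that is removed and degraded, all 7 tested entries were called higher. FP236383.8 was the highest in fold there, at 307.9 and 198.7 against 1.25 and 1.83. In 5.8S all 3 tested entries were higher, and in 28S 4 were higher, 2 lower and 1 not called. These repeats are nearly identical, so the assignment of reads to 1 copy is uncertain.

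The 13 mitochondrial mRNAs, which encode subunits of the respiratory chain and ATP synthase, summed to 3590 and 4145 scaled TPM in T1 and T2 and to 35008 and 37382 in T24P3 and T24-4, 9.36-fold lower. All 13 were called lower, beside 11% of all genes, with log2 fold changes from -6.15 to -1.41. MT-ATP8 and MT-ATP6, the ATP synthase subunits, stood at 41.0 and 47.7 against 3054 and 3392, and at 20.8 and 26.1 against 1581 and 1747. MT-CO3, a cytochrome oxidase subunit, differed least, at 1580 and 1716 against 4164 and 4576 (log2 fold change -1.41 ± 0.13, SE, limma adjusted P = 0.00315), and was the only one not called without T1 or without T2 (-1.35 and -1.47). MT-ND6, an NADH dehydrogenase subunit on the other strand, stood at 16.6 and 22.9 against 1280 and 1254. The order of the mRNAs therefore differed between prefixes, with MT-CO3 first in T1 and T2 and MT-CO1 (838.7 and 1078 against 7208 and 7521) first in T24P3 and T24-4.

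The mitochondrial rRNAs were lower too, MT-RNR2 at 121.4 and 154 against 842.4 and 907.6 and MT-RNR1 at 42.7 and 57.6 against 177.1 and 219.3. MT-RNR1 was not called without T1 (log2 fold change -1.76). The 22 mitochondrial tRNAs did not move as 1 group. They summed to 3922 and 3688 against 3447 and 3835, with a log2 ratio that turned to -0.84 with TPM as deposited. On the plus strand 12 of 14 were lower and none higher, such as MT-TL1 (2.81 and 2.92 against 245 and 215.2). Of the 14 called lower on either strand, 8 stayed so without T1 and 10 without T2. On the minus strand 4 of 8 were higher and 2 lower. MT-TC stood at 1349 and 1220 against 512.2 and 582.6, and MT-TP at 382 and 374.2 against 90.8 and 108.2. MT-TN (819.9 and 769.9 against 440.4 and 581) and MT-TY (841.5 and 764.1 against 456.6 and 493.9) were called higher here, but their log2 fold changes were -0.25 and -0.15 with TPM as deposited. MT-TP held its call without any 1 of the libraries. MT-TC, MT-TN and MT-TY did not, at 1.14 to 1.32, 0.45 to 0.85 and 0.69 to 0.82 over the leave-outs.

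**Figure D3:**
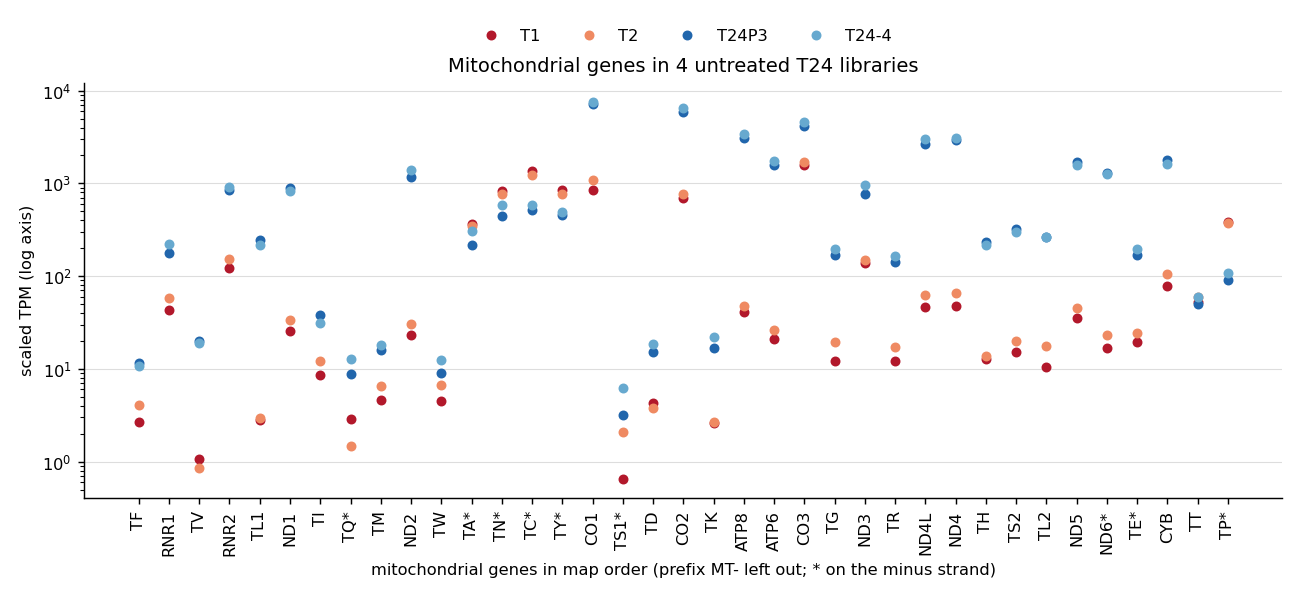
Scaled TPM (log axis) of each mitochondrial mRNA, rRNA and tRNA in T1 and T2 (reds) and T24P3 and T24-4 (blues), 1 point per library. The mRNAs and rRNAs lie lower in T1 and T2 throughout, while MT-TC, MT-TP, MT-TN and MT-TY lie higher.

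Classes of long RNA held similar sums. Genes named LINC, which give long intergenic RNAs, summed to 879 and 860 scaled TPM in T1 and T2 and to 793 and 843 in T24P3 and T24-4. Antisense RNA genes summed to 1635 and 1718 against 1751 and 1758, zinc finger genes to 3818 and 3926 against 3517 and 3498, and clone-named genes to 13234 and 13017 against 12481 and 14115. The direction of the small differences of the LINC, antisense, zinc finger and clone-named sums turned with another scaling. MicroRNA genes, whose entries are precursors within longer transcripts, summed to 746 and 736 against 544 and 528, and this difference too turned with TPM as deposited (log2 ratio -0.44).

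The cytosolic ribosomal protein genes, whose mRNAs carry poly(A) tails, summed to 87710 and 78908 scaled TPM in T1 and T2 and to 89728 and 95680 in T24P3 and T24-4. As shares of the deposited TPM they took 6.07% to 6.18% and 12.5% to 13.1%. Of 83 tested, 4 were called higher and 9 lower, near the shares over all genes. RPS16 was lower, at a mean of 343.1 against 919.2, and RPL14 was higher, at 528.1 and 451.2 against 148.1 and 261.8. With TPM as deposited 71 of the 83 were called lower, and without T1 or without T2 1 was.

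Genes outside the classes were mostly close in level. Across the 11030 of them with at least 1 scaled TPM in all 4 libraries, the correlation of log2 values across genes was 0.9819 between T1 and T2 and 0.9882 between T24P3 and T24-4, and 0.9486 to 0.9528 between libraries of different prefixes. Genes are not independent replicates, so these values describe the libraries. Of the 13025 entries at 1 scaled TPM or more in all 4 libraries, 83.2% were not called. A further 810 reached 1 scaled TPM in both T1 and T2 and in neither of the others, 243 of them small RNA or replication-dependent histone entries. The reverse held for 281 entries, 15 of them in those classes.

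Of 11651 genes tested outside the classes 614 were called higher (5.27%) and 1315 lower (11.3%), beside 9.54% and 11% of all genes. Of the tested, 191 passed the filter only through T1 and T2 and 113 only through the others, so the features below are a description. The genes called higher had a median exonic length of 4238 bases and 17.4% had a single exon. Genes called lower had 2834 bases and 4.81%, and genes not called 3213 bases and 4.95%. Protein-coding genes made up 83.6%, 93.1% and 94.5% of the same sets. The part of exonic length in these calls was not tested.

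Among genes outside the classes with a mean of at least 10 scaled TPM, the largest rise of a protein-coding gene was that of SERPINB2, an inhibitor of plasminogen activators, at 37.2 and 40.0 scaled TPM in T1 and T2 and 1.61 and 1.46 in T24P3 and T24-4 (log2 fold change 3.97 ± 0.11, SE, limma adjusted P = 4.70e-05). SCG5, which encodes a chaperone of the prohormone convertase PC2, stood at 88.5 and 108.2 against 14.3 and 13.9, and FABP4, a fatty acid carrier, at 15.1 and 17.8 against 2.06 and 2.23. The read-through entry C15orf38-AP3S2 stood at 23.9 and 25.2 against 1.11 and 0.973 and overlaps AP3S2, so its reads cannot be separated from that gene. These calls held without any 1 of the libraries. The pseudogene TMSB4XP1 (29.6 and 27.4 against 0.977 and 7.60) was called, but not without T1 or without T2 (log2 fold change 2.78 and 2.89).

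The largest falls included nuclear copies of mitochondrial sequence. MTND2P28 stood at 7.38 and 8.51 against 206.8 and 242.9, and MTATP6P1 at 10.9 and 0.00895 against 602.7 and 666.6, and reads of the mitochondrial genes themselves could be assigned to them. ATN1, a transcriptional corepressor, stood at 5.82 and 5.49 against 79.5 and 63.8 (log2 fold change -3.44 ± 0.14, SE, limma adjusted P = 1.95e-04). KRT17, a basal keratin, stood at 2.74 and 2.90 against 35.4 and 29.2. ACTG2, a smooth muscle actin, stood at 2.03 and 2.69 against 23.4 and 22.8, and ANP32B, a histone chaperone, at 63.6 and 63.6 against 332.8 and 349.8. PCDHGC3, PCGF2 and VAMP2 were the others of this set, and the pseudogene GNRHR2P1 was listed at 0 in T1 and T2 and at 11.2 and 10.7 in the others. The calls of all 10 held without any 1 of the libraries. In deposited TPM, KRT17 was at 17 in U1 and U2 against 2.02 to 22.7 in the 6 overexpression libraries, and GNRHR2P1 at 0 to 0.235 against 0 to 15.9. ACTG2 went the opposite way there, and the rest of this set was lower in U1 and U2 with no overlap.

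The highest mRNAs were shared. GAPDH led outside the classes, at 7264 and 5954 scaled TPM in T1 and T2 and 7952 and 7619 in T24P3 and T24-4. EEF1A1, the elongation factor that brings tRNA to the ribosome, stood at 3926 and 4803 against 5142 and 6940. The cytoskeletal actins ACTB (4086 and 3062 against 4815 and 3982) and ACTG1 (3677 and 2753 against 3221 and 3149) followed, with the ranges of ACTG1 overlapping. Of the 20 highest in both groups, 14 were not called. HSPA8, a constitutive HSP70 chaperone that hosts snoRNAs, was called higher, at 3447 and 3799 against 2132 and 2503, but its log2 fold change was -0.26 with TPM as deposited. KRT7, TUBA1B, NPM1, TMSB4X and PFN1 were called lower, with TUBA1B, an alpha-tubulin, at 1500 and 1673 against 4100 and 3788. None of these 6 calls held without T1 or without T2, where TUBA1B stood at log2 fold changes of -1.24 and -1.39.

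The 15 glycolysis genes were high in all 4 libraries, summing to 18941 and 16429 scaled TPM in T1 and T2 and 21974 and 21839 in T24P3 and T24-4. Only HK2, the hexokinase induced in many tumours, was called, lower at 26.5 and 24.7 against 41.3 and 40.4, and its call was lost without T1, without T2 or without T24P3 (log2 fold change -0.70 to -0.60 over the leave-outs). PKM (1856 and 1719 against 2445 and 2424) and ENO1 (3219 and 2803 against 4182 and 3963) did not pass.

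All 4 libraries held a mix of epithelial keratins and mesenchymal genes. Of 15 urothelial and luminal markers 7 were tested, and all 7 were at 1 scaled TPM or more in every library. KRT18 (567.6 and 484.6 against 415.6 and 399.5), KRT19 (223.6 and 195.7 against 212.8 and 198) and the urothelial regulators PPARG and FOXA1 were not called. KRT7 (1769 and 1501 against 3913 and 3632), KRT8 (528.2 and 476.6 against 811.6 and 788.1) and GATA3, a luminal transcription factor (3.38 and 3.81 against 12.5 and 9.94), were lower. The listed uroplakins, plaque proteins of differentiated urothelium, were under 1 scaled TPM in every library. UPK3B was the highest of them, at 0.7398 and 0.3193 against 0.0627 and 0.4645. KRT20, ELF3 and GRHL3 were under 1 scaled TPM in every library too. None of the 3 calls held without T1 or without T2. Of 12 basal and squamous markers, 3 were tested and KRT17 was the one called. DSC3 and CD44, the hyaluronan receptor, were not.

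Of 15 mesenchymal genes 12 were tested and none was called by limma. VIM, the intermediate filament of mesenchymal cells, stood at 1851 and 1636 against 1778 and 1470, and FN1, a matrix protein, at 1322 and 1317 against 1437 and 1387. CDH2, N-cadherin, stood at 139.5 and 130.1 against 110.3 and 110.2. SPARC stood at 153.7 and 83.6 against 169.3 and 181.3, and would have been called lower without T1 (log2 fold change -1.06). With TPM as deposited 10 of the 12 were called. Of 14 epithelial junction genes 8 were tested, and 6, among them CDH1 (0.0277 and 0.0395 against 0 and 0.113), were under the filter. Only DSP, which encodes desmoplakin, was called, higher at 14.7 and 14.1 against 7.497 and 7.01. That call was lost without T1 or without T2 (0.87 and 0.93).

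Most markers of other cell types were under the filter of 1 scaled TPM in 2 libraries, and which cells the others came from was not tested. Of 10 immune markers only CD68 was tested, at 4.84 and 1.38 against 2.32 and 1.99, and it was not called. Summed immune markers ranged from 2.07 to 5.81 scaled TPM over the 4 libraries. Of 6 endothelial markers only CDH5 was tested, higher at 6.89 and 6.17 against 2.47 and 2.25, with the call lost without T1 or without T2 (log2 fold change 1.10 and 1.23). Of 8 muscle and fibroblast markers 3 were tested. TAGLN, an actin-binding protein, was lower at 875.2 and 580.6 against 2316 and 2344, and ACTA2 lower at 3.42 and 2.45 against 5.23 and 7.52, the second call lost without T1, without T2 or without T24-4 (-1.08 to -0.68). No blood or nerve marker was tested. Their sum was 1.03, 0.876 and 1.01 in T1, T2 and T24P3 and 4.21 in T24-4, which stood apart with the globin genes HBB at 1.94, HBA1 at 0.738 and HBA2 at 0.469. The T cell genes CD3D (1.07) and CD3E (0.484) and the lysozyme gene LYZ (1.14) were also higher in T24-4 than in the others, where none passed 0.067, and PTPRC, the pan-leukocyte marker CD45, was at 0.194. In the series such RNA was not confined to T24-4. Over the 6 overexpression libraries deposited TPM ran from 0 to 3.65 for HBB, 0 to 1.68 for CD3D and 0 to 1.68 for LYZ. The part of such RNA in the results was not tested, and counts without T24-4 are given above.

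**Figure D4:**
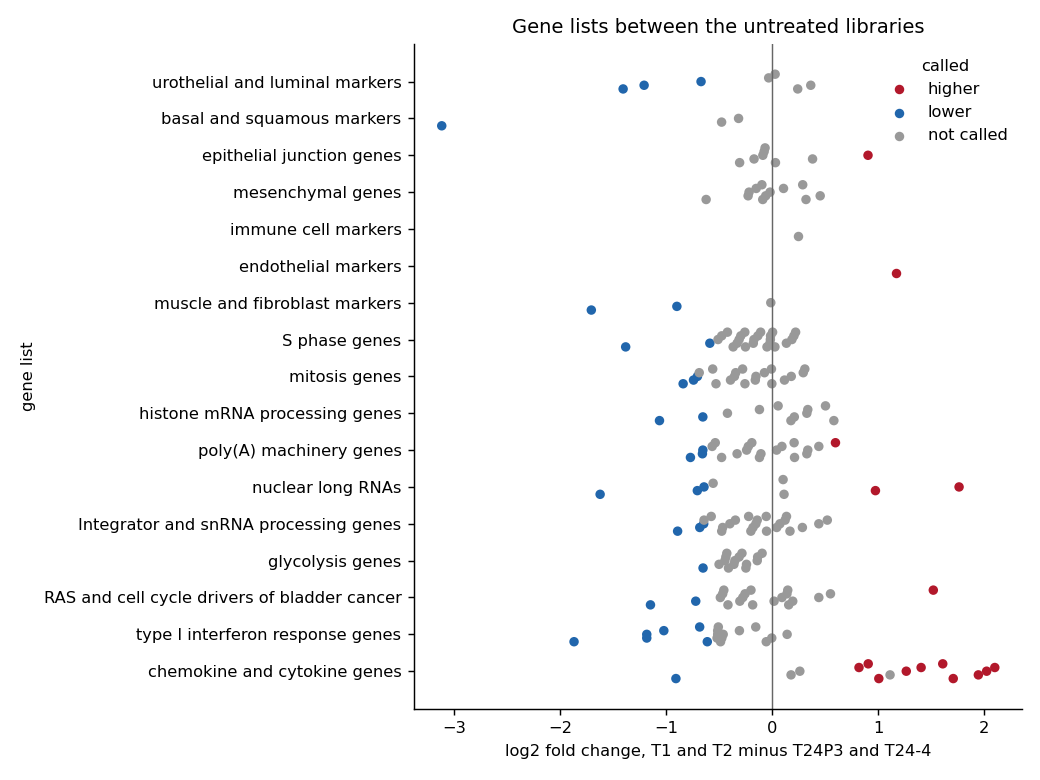
Log2 fold change of each tested member of the gene lists, T1 and T2 minus T24P3 and T24-4, 1 point per gene, with called members marked. Most members of the cell cycle, glycolysis and mesenchymal lists lie near 0, while 10 of 14 chemokine and cytokine genes are called higher and 6 of 18 interferon response genes lower.

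Genes of DNA replication, when the replication-dependent histones are made, differed little. Of 25 S phase genes 25 were tested, none was higher, and 2 were lower, TYMS, thymidylate synthase (79.5 and 70.6 against 194 and 199.8), and RFC4, a subunit of the clamp loader (35.2 and 42.2 against 55 and 62.2). RRM2, a ribonucleotide reductase subunit, stood at 151.7 and 144.2 against 151.4 and 139.6. The call of TYMS held without any 1 of the libraries, and that of RFC4 in none of the 4 fits (log2 fold change -0.72 to -0.46). Of 20 mitosis genes 3 were lower, near the 11% of all genes. They were PLK1, KIF20A and CDC20, with CDC20, the activator of the anaphase-promoting complex, at 296.7 and 260.1 against 462.4 and 469. None of the 3 held throughout. MKI67 (32.6 and 113.1 against 60.5 and 39.7) and CENPE (11.8 and 51.4 against 42 and 39.6) differed more between T1 and T2 than between the groups, and CENPE and CDK1 would have been called lower without T2 (-1.71 and -1.05).

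The factors that form RNA 3′ ends also differed little. Of 11 histone mRNA processing genes 2 were lower, beside 11% of all genes. They were LSM10, a subunit of the U7 particle (29.0 and 24.6 against 56.5 and 57.4), which held without any 1 of the libraries, and SYMPK, a scaffold of the cleavage complex (27.4 and 22.3 against 43.3 and 36.1), which did not (-0.80 to -0.51). SLBP, which binds the histone stem-loop, stood at 67.6 and 64.5 against 85.3 and 92.6 and was not called. Of 20 poly(A) machinery genes 1 was higher and 3 lower, beside 9.54% and 11% of all genes. PAPOLG, a poly(A) polymerase, was higher at 8.82 and 8.90 against 5.499 and 5.55, but its log2 fold change was -0.20 with TPM as deposited. PABPC4, CPSF1 and SYMPK were lower, and none of the 4 calls held throughout. Of 24 tested genes of the Integrator complex and other snRNA and 7SK factors 3 were lower, near the 11% of all genes. They were CPSF3L, SNAPC1 and HEXIM1, and again none of these calls held throughout. HEXIM1, which works with 7SK RNA, stood at 26.8 and 25.7 against 43.2 and 42.4.

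Among nuclear long RNAs 8 of 12 were tested. MALAT1, which ends in a triple helix and lacks a poly(A) tail, was higher at 66.0 and 86.6 scaled TPM against 21.4 and 21.7 (log2 fold change 1.76 ± 0.15, SE, limma adjusted P = 0.00289) and held without any 1 of the libraries. NEAT1, the scaffold of paraspeckles, was lower at 2.18 and 5.03 against 12.97 and 12.03, a call lost without T1 (-1.16). FTX, a noncoding RNA of the X inactivation centre, was higher and TUG1 lower, with TUG1 at 43.3 and 49.0 against 70.4 and 74.9. JPX and PVT1 were not called.

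The RAS and cell cycle genes linked with bladder cancer were mostly alike. HRAS, which carries an activating mutation in T24, stood at 197.1 and 173.5 against 255 and 257.5, and CCND1, cyclin D1, at 462.8 and 424.3 against 442.5 and 433.3, and neither was called. Of 20 tested, 1 was higher and 2 lower, beside 9.54% and 11% of all genes. MDM2, the ligase that degrades p53, was higher at 66.4 and 28.03 against 14.5 and 14.4, and without T1 its log2 fold change of 0.91 was not called. Without T24P3 or T24-4 it was not called either, at 1.52 in both. TERT, the catalytic subunit of telomerase, was lower at 1.71 and 1.48 against 5.09 and 4.42, and ARID1A, a chromatin remodeller, at 21.4 and 20.9 against 37.8 and 33.4. Neither held without T1 or without T2 (TERT -1.21 and -1.08, ARID1A -0.74 and -0.70).

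Of 18 chemokine and cytokine genes 14 were tested and 10 were called higher, beside 9.54% of all genes. CSF2 and TNF passed the filter only through T1 and T2. CXCL8, a neutrophil chemokine, stood at 273.6 and 334.7 scaled TPM against 79.8 and 76.1 (log2 fold change 1.94 ± 0.13, SE, limma adjusted P = 0.00130), and CXCL1 at 501.7 and 477 against 203.4 and 203. IL6 stood at 21.7 and 22.1 against 4.63 and 4.63. CSF2, which encodes GM-CSF, was at 3.67 and 3.45 against 0.131 and 0. CXCL2, CXCL3, CXCL6, IL1A, IL1B and TNF were the others higher, and CCL5 was lower at 1.496 and 1.45 against 3.34 and 3.97. Of the 11 calls 7 held without any 1 of the libraries, and those of CXCL3, IL1A, TNF and CCL5 did not. With TPM as deposited 5 were called higher.

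Of 18 type I interferon response genes tested, 6 were called lower, beside 11% of all genes, and none higher. IFI6, a mitochondrial membrane protein induced by interferon, stood at 31.1 and 28.02 scaled TPM against 111.4 and 109.7 (log2 fold change -1.87 ± 0.10, SE, limma adjusted P = 6.04e-04), and IFI27 at 63.1 and 91.3 against 177.4 and 170.4. OAS2, OAS3, IFI44 and BST2 were the others lower. MX1 (16.2 and 20.01 against 19.7 and 17.9) overlapped between the groups. The calls of IFI6 and IFI27 held without any 1 of the libraries, and those of OAS2, OAS3, IFI44 and BST2 did not. Without T1 2 of the 18 genes and without T2 3 were called lower.

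The other 8 libraries share none of the 4 untreated ones and are split by the same prefixes. In U1 and U2, labelled knockout and with prefix R18051, the small RNA and replication-dependent histone classes held 52.2% and 55.5% of the TPM, and in the 6 overexpression libraries 0.175% to 0.211%. Mitochondrial mRNAs held 0.476% and 0.368% against 5% to 5.69%. The R18051 libraries therefore stood together whatever the treatment label, and so did the others, in each class plotted for all 12 libraries. The treatment differs between these 8 as well, and the 2 libraries of each line label are not shown to be independent. RNU11 went against the knockout label, at 41.8 and 54.8 in U1 and U2 against 34.1 and 35.1 in T1 and T2 (scaled over all 12 libraries). By real-time quantitative PCR, a measure unlike TPM, the study reports a significant decrease of U11 in its knockout line. The difference between these measures was not tested. In the overexpression libraries of line labels 86 and 87 most of the level was listed under the second RNU11 entry at the same locus. Both entries together stood at 50.6 and 43.3 in those of label 87, at 3.18 and 2.95 in those of label 86 and at 0.153 and 0.341 in those of label 79. The second entry was listed at 0 in T1, T2, U1 and U2.

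**Figure D5:**
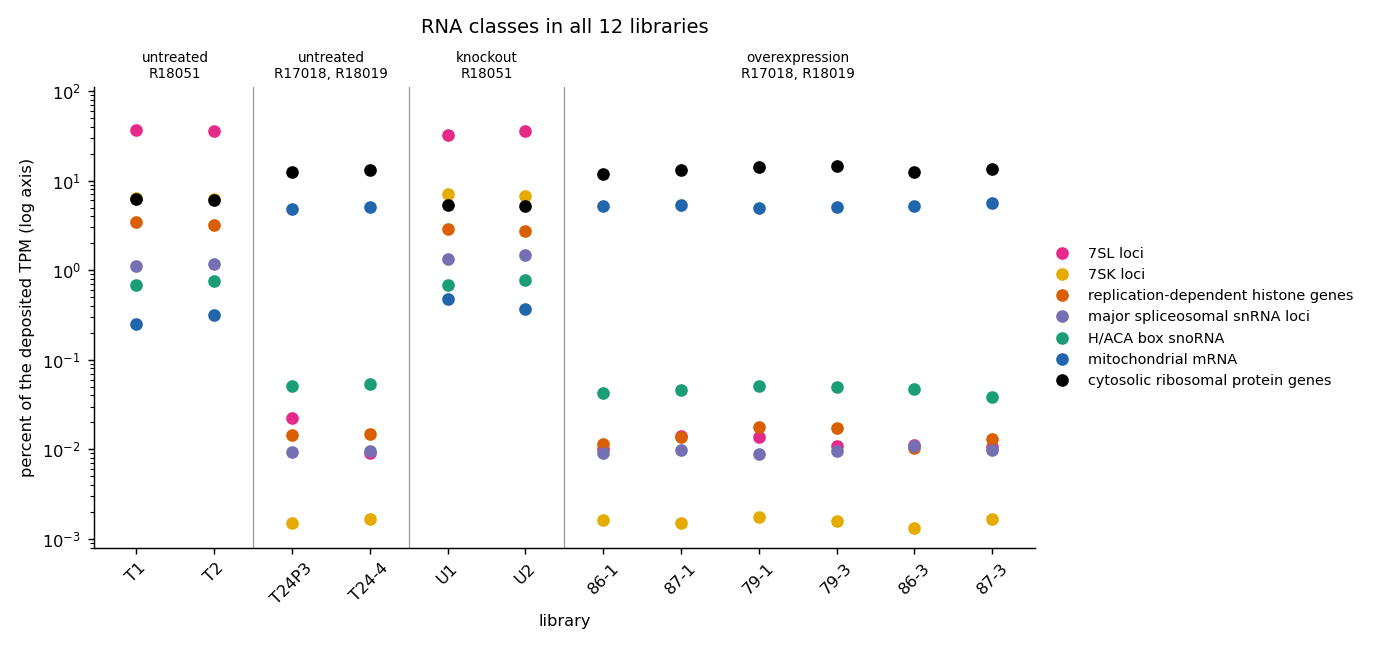
Share of the deposited TPM (percent, log axis) of 7 RNA classes in each of the 12 libraries, ordered by treatment label and prefix, 1 point per class and library. 7SL, 7SK, histone, snRNA and H/ACA entries are high and mitochondrial mRNAs low in T1, T2, U1 and U2, and the reverse holds in the other 8.

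The libraries labelled knockout were set against the overexpression libraries in the same way, where 15.6% of 16253 genes were called higher and 15.6% lower. Of the 1427 genes higher in T1 and T2, 1355 were tested there, 94.6% had the same direction and 74.2% were called the same way. Of the 1652 lower, 1645 were tested, 93.3% had the same direction and 64.7% were called the same way. Over all 14817 genes tested in both, 76% had the same direction. Read from the other side, 47.6% of the genes called higher and 43.2% of those called lower in the 8 libraries were called the same way in the 4. Outside the classes the shares were 59% of 600 genes called higher and 63% of 1312 called lower. Calls in opposite directions were made for 31 genes.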

How the data were processed

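RNA of T24 cells was sequenced in 12 libraries, of which the 4 untreated ones are compared here. Per the study's methods, the authors trimmed reads with fastp, aligned them to hg38 with Hisat2 and ran Stringtie on each library. The deposited tables give coverage, FPKM and TPM for 60504 entries, and TPM was the value used. The authors' DESeq2 counts are not analysed here, and no interval on single values could be computed from TPM.

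TPM was scaled by median ratio, tested as log2(scaled TPM + 1) with limma 3.58.1 in R 4.3.3 (mean-variance trend) for genes with at least 1 scaled TPM in 2 libraries, and called at a Benjamini-Hochberg adjusted P under 0.05 and 1.5-fold. Sums and figures were made in Python 3.11.15 with pandas 2.3.3, numpy 2.4.6, matplotlib 3.10.9 and scipy 1.17.1. On simulated data for this comparison (14963 genes), 200 of 200 genes changed 4-fold and 199 of 200 changed 2-fold were called, with 3 unchanged genes. The simulation gave genes of a like level the same spread, without the differences in spread between real genes. It therefore does not give the share of changes found in these data, where SCARNA12 was not called at a log2 fold change of 3.98.

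The members and lists were chosen with earlier results of these data known. Class prefixes that also took unrelated symbols were narrowed after the tables were read. Named genes were up to 3 members of each class with the highest mean, the 10 largest rises and 10 largest falls outside the classes (a mean of at least 10 scaled TPM in the higher group, no overlap), the 20 highest in both groups, all list members and every RNU11 entry. Other class members are named for counts or as examples chosen after their values were seen. Of the 60504 identifiers, 56558 were found in GENCODE 44. A symbol was shared with another entry by 2078, so entries were followed by identifier. The alternatives were TPM as deposited, quantile normalization, scaling outside the classes, coverage in place of TPM, other filters and pseudocounts, no trend, no fold threshold, unadjusted P, all 12 libraries in one fit, classes without their 3 highest members and each library left out.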

Additional observations from a re-analysis of the deposited data

Results flagged for a closer look

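In 6 named genes the libraries of prefix R18051 and those of the other prefixes were called in opposite directions among the 4 untreated libraries and among the other 8, where the libraries labelled knockout were set against the overexpression libraries. The difference between the 2 comparisons was not tested. CXCL6 was higher in T1 and T2, and its log2 fold change in the other 8 was -3.33, with 5.76 and 6.18 scaled TPM (over all 12 libraries) in U1 and U2 against 47.7 to 96.3. CXCL1 was at -1.35, with 134.4 and 158.2 against 306 to 442, CXCL8 at -1.42, with 82.2 and 95.2 against 169 to 282, and CXCL3 at -1.13, with 2.76 and 3.61 against 6.04 to 12.3. CDH5 was at -3.11, with 0.0417 and 0.0429 against 3.31 to 28.5, and its 2 highest libraries were those of line label 79. ACTG2, lower in T1 and T2, was at 3.97, with 96.98 and 112 against 2.57 to 12.3. In each of the 6 the values of U1 and U2 did not overlap with those of the 6 overexpression libraries. Of 13 chemokine and cytokine genes tested in the other 8, 1 was higher (IL6, log2 fold change 2.23) and 5 were lower.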

How the results depend on the processing

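The directions of the small RNA, replication-dependent histone and mitochondrial mRNA sums kept under every alternative, while counts of single genes moved with the scaling and with the number of libraries. The cause of each move was not tested unless the alternative's own construction gives it. With TPM as deposited, which does not correct for the share taken by the small RNAs, 519 genes were called higher and 10485 lower, and with scaling outside the RNA classes 2261 and 917. Requiring 1 scaled TPM in all 4 libraries tests fewer genes and gave 733 higher, and no filter gave 1035 lower. Small differences between class sums changed sign. With TPM as deposited the log2 ratio was -0.842 for mitochondrial tRNAs, -0.438 for microRNA genes, -0.817 for long intergenic RNA genes and -0.761 for zinc finger genes. With scaling outside the classes it was 0.146 for RNA host genes, 0.159 for antisense RNA genes, 0.204 for clone-named genes, 0.067 for ribosomal protein genes and 0.114 for ribosomal protein pseudogenes. Without the 3 highest members it was -1.191 for mitochondrial tRNAs, -0.016 for long intergenic RNA genes, 0.107 for clone-named genes and 0.128 for ribosomal protein pseudogenes, and this alternative gave no value for the RNase and telomerase class, where no level was left in the lower group. Coverage in place of TPM gave 0.035 for clone-named genes.

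Counts of members called lower with TPM as deposited were 9 for histone variants, 17 for RNA host genes, 71 for ribosomal protein genes, 6 for urothelial markers, 25 for S phase, 18 for mitosis, 6 for histone mRNA processing, 16 for poly(A) machinery, 6 for nuclear long RNAs, 22 for Integrator and snRNA factors, 15 for glycolysis, 16 for RAS and cell cycle drivers and 18 for interferon response genes. Under the same setting 11 Y RNA entries, 0 epithelial junction genes and 5 chemokine and cytokine genes were called higher, and 10 mesenchymal genes were called. With scaling outside the classes the counts lower were 3 for histone variants, 3 for host genes, 4 for ribosomal protein genes, 1 each for S phase, mitosis, histone mRNA processing, nuclear long RNAs and RAS and cell cycle drivers, and 0 for poly(A) machinery, Integrator and glycolysis genes, and 1 mesenchymal gene was called. With quantile normalization they were 3 for host genes, 14 for ribosomal protein genes, 1 each for S phase, nuclear long RNA and Integrator genes and 4 for glycolysis genes, and 13 Y RNA entries were higher. Of single named genes, ZNF106 (log2 fold change -0.194), HSPA8 (-0.258), PAPOLG (-0.196), H3F3B (-0.112), MT-TN (-0.254) and MT-TY (-0.150) were called higher and turned with TPM as deposited. No other named gene that was called changed direction under any alternative.

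When 1 library was left out, the lone library was assumed to vary like the other pair. Leaving out T1 or T2 with the 2-library filter removes entries at or near 0 in T24P3 and T24-4, so a second set of fits, chosen after seeing the data, kept the genes tested in all 4. Over both sets, 332 to 1405 genes were called higher and 259 to 1397 lower. The log2 ratio ran from -0.011 to 0.143 for mitochondrial tRNAs and from -0.105 to 0.073 for clone-named genes. Entries called higher were 22 to 66 for replication-dependent histones (63 to 66 with the genes kept), 1 to 51 for major and 0 to 6 for minor snRNAs, 7 to 57 for C/D box and 23 to 71 for H/ACA box snoRNAs, 5 to 18 for Cajal body RNAs, 0 to 8 for 7SK, 4 to 19 for 7SL, 0 to 5 for RNase and telomerase RNA, 0 to 20 for Y RNAs and 3 to 10 for rRNA entries. Entries called lower were 1 to 4 for histone variants, 8 to 16 for mitochondrial tRNAs, 0 to 6 for host genes and 1 to 7 for ribosomal protein genes. For the lists, the counts lower were 0 to 3 for urothelial markers, nuclear long RNAs and Integrator genes, 1 for S phase, 1 to 5 for mitosis, 1 to 2 for histone mRNA processing, 0 to 4 for poly(A) machinery, 0 to 2 for glycolysis and for RAS and cell cycle drivers, and 2 to 5 for interferon response genes, with 0 to 1 junction gene higher and 0 to 1 mesenchymal gene called. No paired analysis was possible because the groups compared share no replicate numbers in the labels. Without counts, depth could not be turned into an error for single values.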
